A study of Mus musculus with 6 samples.

Results

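The collagen genes of the mouse cerebral cortex were compared between Pen-2 cKO and control mice at postnatal day 8. Members were all genes whose symbol is Col, a type number, the letter a and a chain number, and there were 44 of them among the 34745 genes measured. By their known protein types they fell into 8 classes: 11 fibrillar, 6 basement membrane (type IV), 2 multiplexin, 6 beaded filament (type VI), 9 fibril-associated, 3 hexagonal network and 4 transmembrane collagens, and 3 that stand apart.

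The data are RNA sequencing of cortical total RNA. In the Pen-2 cKO group, 3 samples carried hGFAP-Cre, a transgene that makes Cre recombinase from a human GFAP promoter, on a Pen-2 F/F background, in which both alleles of the PEN-2 gene (*Psenen*) are floxed. In the control group, 3 samples were Pen-2 F/F, and their labels give no Cre. PEN-2 belongs to γ-secretase, a protease complex of the membrane that cuts Notch receptors among others, and hGFAP-Cre is known to be active in radial glia, whose progeny includes neurons as well as glia. Since the labels do not tie each sample to its own animal, p-values cover the spread of these samples alone, which may be technical. Effects of the transgene cannot be told apart from those of the deletion.

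Collagens are secreted or membrane proteins of 3 chains wound into a triple helix, which requires glycine at every repeat of 3 residues. Fibrillar collagens build the fibres of connective tissue. Type IV forms the sheet of the basement membrane, which in brain surrounds the blood vessels and lies under the pia. Type VI forms beaded filaments, fibril-associated collagens sit on fibres, and transmembrane collagens are anchored in the cell surface. In brain, fibrillar collagens are known from fibroblasts of the meninges and of large vessels, and *Col4a1* and *Col4a2* from endothelial and mural cells.

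The repeat is visible in the coding sequences, which are shown to make the difference between the classes concrete. The stretches of 27 codons below are from GENCODE M21 transcripts of 3 genes that were higher in cKO cortex, read 5′ to 3′, with each glycine codon (GGN) in capitals. The *Col3a1* stretch opens its longest unbroken run, and the *Col4a1* and *Col9a3* stretches cross the end of theirs.
Col3a1: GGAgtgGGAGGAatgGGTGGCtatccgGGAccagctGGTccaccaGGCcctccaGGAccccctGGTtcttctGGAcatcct
Col4a1: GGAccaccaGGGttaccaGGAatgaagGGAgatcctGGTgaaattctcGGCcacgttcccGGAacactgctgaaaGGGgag
Col9a3: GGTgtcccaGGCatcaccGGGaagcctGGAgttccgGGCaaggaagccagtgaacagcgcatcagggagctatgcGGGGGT
In *Col3a1*, which encodes the chain of fibrillar type III collagen, the glycine codon recurred in 344 consecutive repeats. The longest run was 40 repeats in *Col4a1*, whose repeats were split into 22 runs of at least 5, and 113 repeats in *Col9a3*, a chain of fibril-associated type IX, with 6 runs. Over the 44 longest coding sequences, the longest run had 216 to 344 repeats in the fibrillar class and 39 to 66 in type IV. It had 32 to 113 repeats in the fibril-associated class and 37 to 87 in type VI. The fibrillar class lay above every other class in this measure, without overlap.

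**Figure D1:**
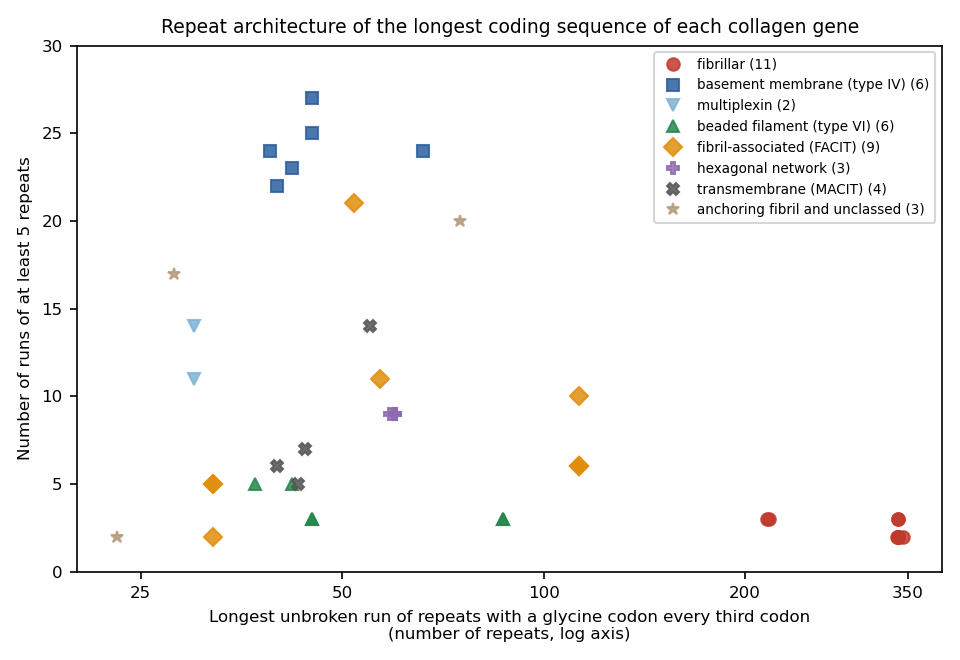
Each point is 1 collagen gene, placed by the longest unbroken run of glycine-codon repeats in its longest coding sequence (x axis, log scale) and by the number of runs of at least 5 repeats (y axis), with a colour and shape for each class. The 11 fibrillar genes lie at 216 to 344 repeats with 2 or 3 runs, and the 6 type IV genes at 39 to 66 repeats with 22 to 27 runs.

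Levels are FPKM as the authors deposited them, that is, fragments per length of transcript and per depth. The value of 1 fragment in genes with a single transcript implied 25123100 to 26809300 fragments in the cKO libraries and 20251900 to 24872600 fragments in the control libraries. *Psenen* averaged 3.83 ± 0.241 FPKM in cKO and 6.84 ± 0.485 FPKM in control cortex (SD, n = 3 each). *Xist* was high and the Y-linked *Ddx3y* at 0 in all 6 libraries. Markers of cortical neurons were abundant: *Slc17a7*, the vesicular glutamate transporter of excitatory neurons, ranged over 176 to 227 FPKM in cKO and 181 to 250 FPKM in control libraries.

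Of the 44 collagen genes, 8 stayed under 0.5 FPKM in all 6 libraries. They were *Col2a1*, *Col27a1*, *Col4a3*, *Col4a4*, *Col6a6*, *Col10a1*, *Col13a1* and *Col17a1*. None was at 0 in any library. *Col10a1*, whose single transcript lets fragments be counted, had 1, 7 and 7 fragments in the cKO libraries and 7, 6 and 1 in the control libraries. Another 7 reached 0.5 FPKM in 1 or 2 libraries (*Col5a3*, *Col6a4*, *Col6a5*, *Col7a1*, *Col14a1*, *Col20a1* and *Col28a1*). The remaining 29 had at least 0.5 FPKM in at least 3 libraries and were tested, 25 of them above that level in all 6. None of the 29 had every control library under 0.5 FPKM. *Col4a6* and *Col8a2* reached it in only 1 control library each, at 0.512 and 0.645 FPKM.

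Summed over the 44 genes, collagen FPKM was 121, 118 and 153 in the cKO libraries and 85.003, 77.4 and 83.9 in the control libraries. The groups did not overlap, and the cKO mean was 1.59 times the control mean. Type IV was the most abundant class per length, with 30.9% to 31.6% of the collagen sum in cKO and 28.2% to 33.3% in control libraries. The fibrillar class held 20.4% to 22.9% of it in cKO and 18.1% to 20.9% in control libraries. These shares overlapped for type IV and fibrillar genes. Fibril-associated genes held 16.6% to 18.0% in cKO and 17.3% to 21.2% in control libraries, which overlapped as well.

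**Figure D2:**
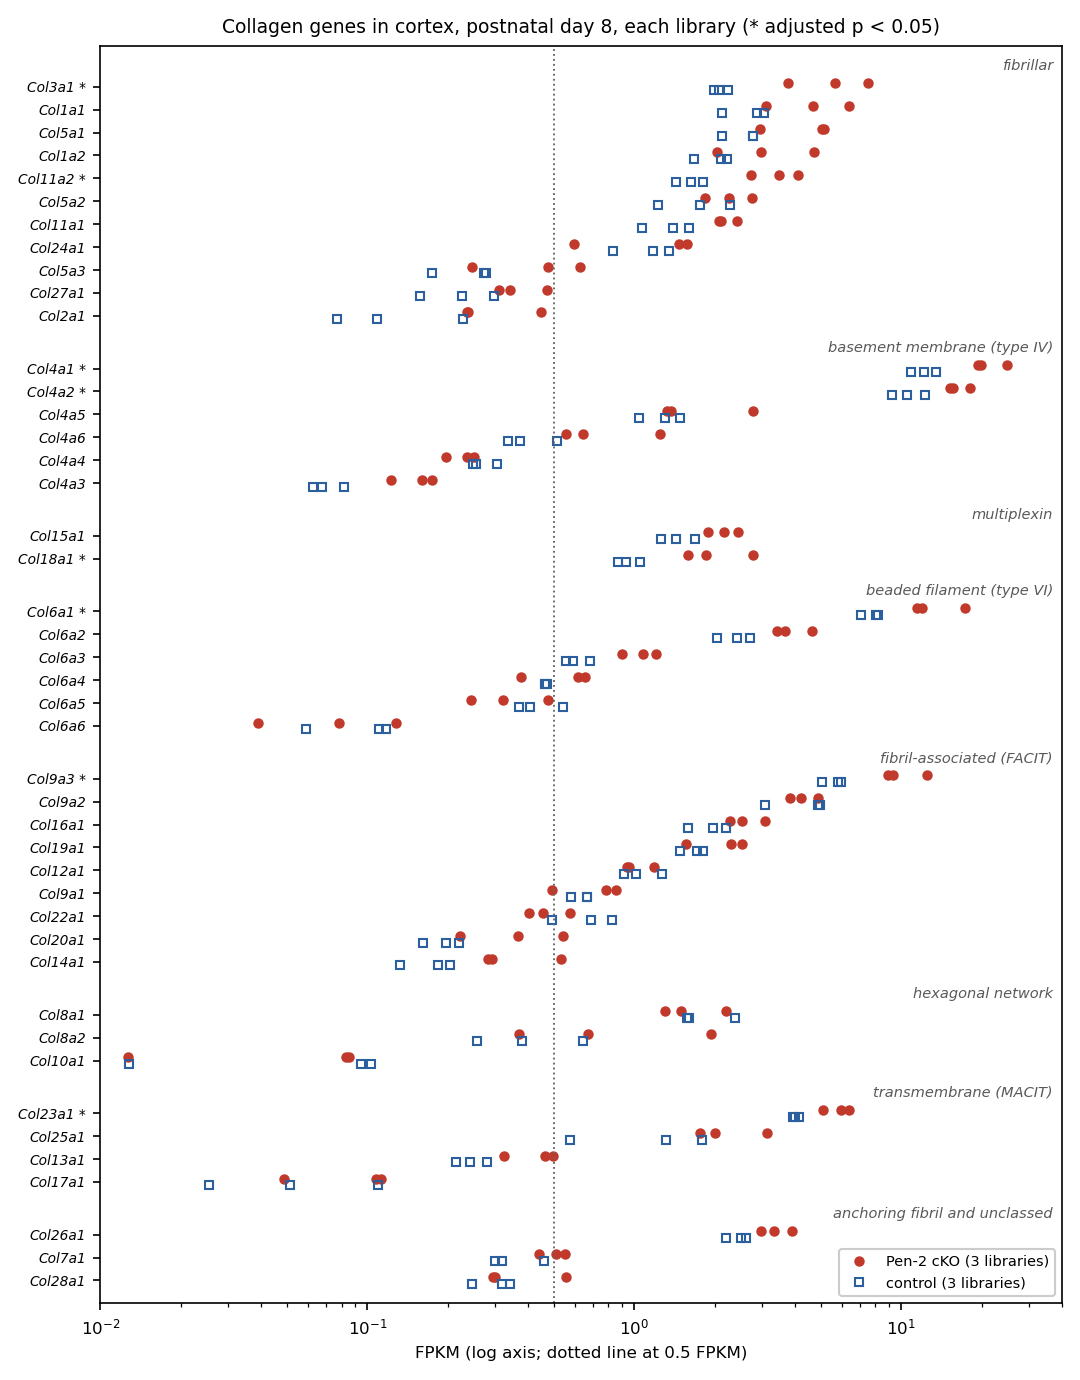
FPKM of each of the 44 collagen genes (rows, by class) in the 3 Pen-2 cKO libraries (filled circles) and the 3 control libraries (open squares), on a log axis. Asterisks mark the 8 genes past the test, and the dotted line marks 0.5 FPKM, under which 8 genes stay in all 6 libraries.

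Collagen genes that passed the test were all higher in cKO cortex. They were *Col3a1*, *Col11a2*, *Col4a1*, *Col4a2*, *Col18a1*, *Col6a1*, *Col9a3* and *Col23a1*, from 6 of the 8 classes, with log2 fold changes of 0.51 to 1.33. That is 8 of 29 tested genes (27.6%), at an adjusted p under 0.05 with limma on log2(FPKM + 0.1), a scale that understates the change of low genes. Over all 14147 tested genes, 5.53% were called, 3.67% higher and 1.87% lower. No collagen gene was called lower, and none was lower at an unadjusted p under 0.05 either, a level that 6.33% of all tested genes passed as lower. At that level 18 collagen genes (62.1%) were higher, against 16.5% of all tested genes. The log2 difference was above 0 in 26 of the 29 (89.7%) and in 63.6% of all tested genes. The median log2 difference was 0.61 over the 29 tested collagen genes and 0.07 over all tested genes.

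In 17 of the 29 tested collagen genes all 3 cKO libraries lay above all 3 control libraries, a pattern held by 21.5% of all tested genes. The opposite pattern was found in none of the 29 and in 8.17% of all tested genes. The calls depended on single libraries: 3 collagen genes were called without cKO replicate 1, 3 without cKO replicate 2, 7 without cKO replicate 3, 1 without control replicate 1, none without control replicate 2 and 4 without control replicate 3. With control replicate 2 left out, 14 were still higher and none lower at an unadjusted p under 0.05. With median-ratio scaling 4 collagen genes were called higher (*Col3a1*, *Col4a1*, *Col9a3* and *Col11a2*) and none lower. The same scaling brought the share of higher calls among all called genes to 47.8%, against 66.3% with FPKM as deposited. Upper-quartile scaling gave 50.4%, and scaling to equal sums 78.8%.

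**Figure D3:**
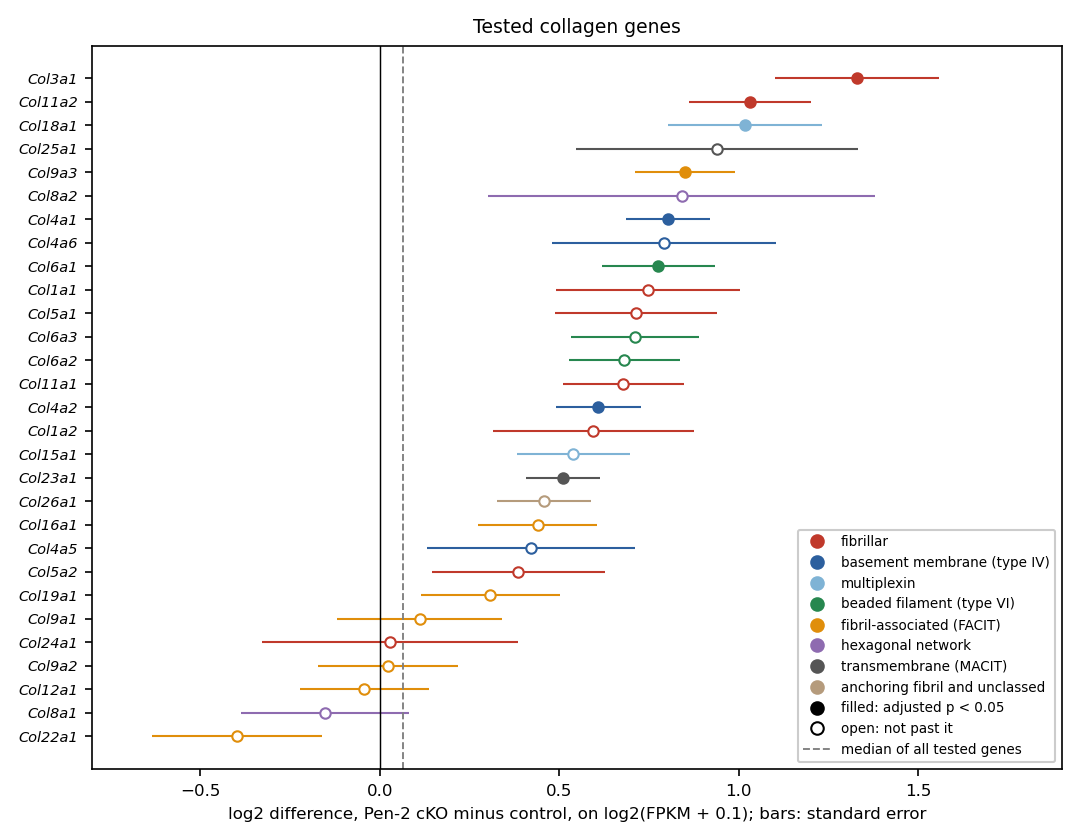
Log2 difference between Pen-2 cKO and control (x axis, with its standard error) for the 29 tested collagen genes, coloured by class. Filled points are the 8 genes with an adjusted p under 0.05, all to the right of 0, and the dashed line is the median of all tested genes at 0.07.

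Among fibrillar genes, 2 of the 8 tested rose and none fell. *Col3a1* (ENSMUSG00000026043, chromosome 1 of mm10, 45311538 to 45349706) had values of 5.66, 3.77 and 7.52 FPKM in the cKO libraries and 2.08, 2.25 and 1.99 FPKM in the control libraries. Every cKO library lay above every control library, and the cKO values spread far more than the control values. It had the largest fold change of the tested collagen genes, 1.33 on the log2 scale (SE 0.23, adjusted p = 0.0206). Its adjusted p was 0.0541 to 0.0764 without cKO replicate 1 or any 1 of the control replicates. *Col11a2*, a chain of type XI, which forms the core of thin fibrils (ENSMUSG00000024330, chromosome 17, 34039437 to 34066685), was 2.74, 3.49 and 4.11 FPKM in cKO and 1.80, 1.63 and 1.43 FPKM in control libraries. The groups did not overlap, and it rose by 1.03 on the log2 scale (SE 0.17, adjusted p = 0.0178). The adjusted p was 0.0733 without cKO replicate 2 and 0.0756 without control replicate 2.

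The main chains of type I collagen did not pass. *Col1a1* was 4.68, 3.12 and 6.35 FPKM in cKO and 3.06, 2.12 and 2.89 FPKM in control libraries, without overlap. Its mean was 4.71 ± 1.61 FPKM in cKO and 2.69 ± 0.50 FPKM in control cortex (log2 difference 0.75, SE 0.26, adjusted p = 0.143). *Col1a2* averaged 3.24 ± 1.35 FPKM in cKO and 2.01 ± 0.294 FPKM in control cortex, and its groups overlapped. *Col5a1*, a chain of type V, which starts fibril assembly, was 5.03, 5.13 and 2.95 FPKM in cKO and 2.77, 2.14 and 2.79 FPKM in control libraries. Here cKO replicate 3 was the lowest of the cKO libraries, near the control values, and without it *Col5a1* was called higher. *Col5a2*, *Col11a1* and *Col24a1* differed by 0.39, 0.68 and 0.03 on the log2 scale, none past the test, and only *Col11a1* of these showed no overlap between the groups.

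Type IV genes were led by the ubiquitous pair *Col4a1* and *Col4a2*, both of which rose. *Col4a1* (ENSMUSG00000031502, chromosome 8, 11198423 to 11312826) was the most abundant collagen gene per length, at 19.9, 19.4 and 24.8 FPKM in cKO and 12.2, 10.9 and 13.5 FPKM in control libraries. The cKO values were all higher, and the log2 fold change was 0.80 (SE 0.12, adjusted p = 0.0120, the smallest among collagen genes). Its adjusted p was 0.0534 without control replicate 1 and 0.0542 without control replicate 2. *Col4a2* (ENSMUSG00000031503, chromosome 8, 11312805 to 11449287) was 15.2, 15.6 and 18.0 FPKM in cKO and 10.5, 9.21 and 12.3 FPKM in control libraries. It did not overlap either, and rose by 0.61 on the log2 scale (SE 0.12, adjusted p = 0.0298). Its call ended when any library other than control replicate 3 was left out (adjusted p of 0.07 to 0.0923).

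The other type IV chains were low. Of the X-linked pair, *Col4a5* averaged 1.83 ± 0.834 FPKM in cKO and 1.28 ± 0.220 FPKM in control cortex, and *Col4a6* 0.815 ± 0.377 FPKM in cKO and 0.407 ± 0.0923 FPKM in control cortex. Neither passed. Both were highest in cKO replicate 3, at 2.79 and 1.25 FPKM. *Col4a3* and *Col4a4*, known from the kidney filter, stayed under 0.5 FPKM and were not tested. *Col4a3* was 0.161, 0.123 and 0.174 FPKM in cKO and 0.0679, 0.0815 and 0.0627 FPKM in control libraries, which did not overlap. By the length of the longest of its 4 transcripts, that is roughly 27 to 40 fragments per cKO library and 13 to 14 per control library.

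*Col4a1* and *Col4a2* lie head to head on chromosome 8, with RefSeq starts 21 bases apart on opposite strands. The window from 250 bases before to 50 bases after the *Col4a2* start is shown because both genes were higher in cKO cortex and start within it. The corresponding *Col4a1* window shares 78 bases with it. It is chr8:11312555-11312854 on GRCm38.p6, read on the plus strand from RefSeq, with the searched motifs in capitals.
Col4a2: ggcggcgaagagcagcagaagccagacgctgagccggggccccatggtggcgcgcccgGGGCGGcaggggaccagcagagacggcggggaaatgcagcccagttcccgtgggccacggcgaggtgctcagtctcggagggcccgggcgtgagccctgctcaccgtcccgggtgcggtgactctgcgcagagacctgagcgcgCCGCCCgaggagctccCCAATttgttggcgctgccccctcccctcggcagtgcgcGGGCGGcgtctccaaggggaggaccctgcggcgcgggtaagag
The window held 3 GC boxes (GGGCGG or its reverse complement CCGCCC) and 1 CCAAT box, 32 bases before the start, and no TATA box (TATAAA or TTTATA). RefSeq windows were found for 35 of the 44 collagen genes, 38 windows in all. A GC box was in 60.5% of these and in 35.7% of all 32851 RefSeq windows of the same length. A CCAAT box (either strand) was in 34.2% of collagen windows and 37.4% of all windows, and a TATA box in 13.2% of collagen windows and 13.6% of all windows. A match describes the letters alone.

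Within each library *Col4a1* stood above *Col4a2*. The ratio was 1.31, 1.25 and 1.38 in the cKO libraries and 1.15, 1.18 and 1.10 in the control libraries, a measure that scaling between libraries cannot move. The groups did not overlap, and the exact permutation test over libraries (two-sided) gave p = 0.1, the smallest it can give, and 0.3 adjusted over 6 ratios. Exons of the pair overlap by 22 bases. *Col3a1* over *Col1a1*, the type III chain against a single type I chain, was 1.21, 1.21 and 1.19 in cKO and 0.678, 1.06 and 0.690 in control libraries (exact p = 0.1, adjusted 0.3). *Col3a1* exceeded *Col1a1* in all cKO libraries and in 1 control library. The other ratios overlapped: *Col1a1* over *Col1a2* averaged 1.48 ± 0.117 in cKO and 1.33 ± 0.0585 in control libraries, and *Col6a1* over *Col6a2* averaged 3.46 ± 0.305 in cKO and 3.32 ± 0.680 in control libraries. *Col5a1* over *Col5a2* was 2.23, 2.78 and 1.07 in cKO and 1.21, 1.21 and 2.29 in control libraries (exact p = 0.7). *Col1a1* over *Col4a1*, fibrillar against basement membrane, averaged 0.217 ± 0.05002 in cKO and 0.220 ± 0.0288 in control libraries (exact p = 0.9).

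**Figure D4:**
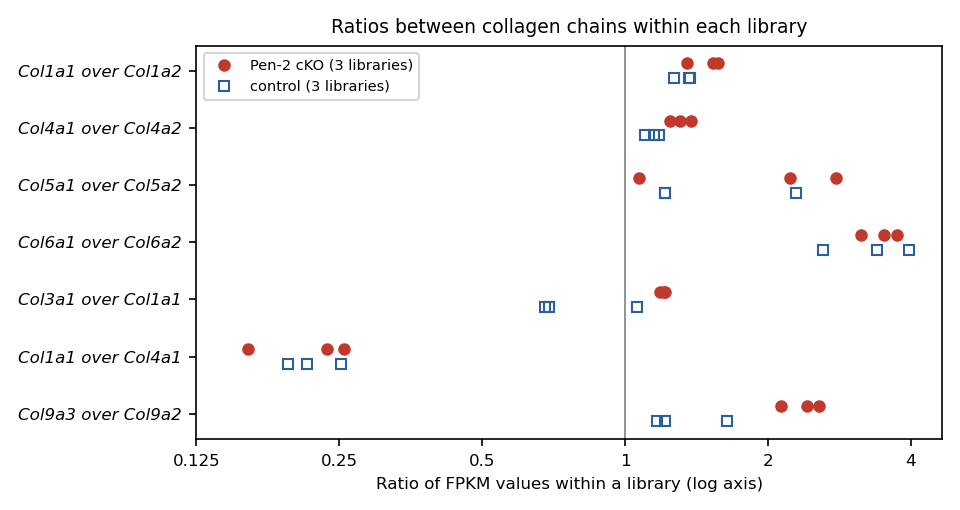
Ratio of the FPKM values of 2 collagen chains within each of the 3 Pen-2 cKO (filled circles) and 3 control libraries (open squares), on a log axis. The cKO libraries lie apart from the control libraries for *Col4a1* over *Col4a2*, *Col3a1* over *Col1a1* and *Col9a3* over *Col9a2*, the last chosen after its values were seen.

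Multiplexins, which carry a cleavable C-terminal domain and lie in the basement membrane zone, were both higher in every cKO library. *Col18a1*, the source of endostatin (ENSMUSG00000001435, chromosome 10, 77052178 to 77166548), was 1.85, 1.59 and 2.79 FPKM in cKO and 0.928, 0.872 and 1.05 FPKM in control libraries. It rose by 1.02 on the log2 scale (SE 0.22, adjusted p = 0.0408), a call that ended when any 1 library was left out (adjusted p of 0.0519 to 0.139). *Col15a1*, the more abundant of the pair, was 2.45, 2.17 and 1.89 FPKM in cKO and 1.69, 1.26 and 1.44 FPKM in control libraries, with a log2 difference of 0.54 that did not pass (adjusted p = 0.0982).

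Of the type VI genes, 1 of 3 tested rose. *Col6a1* (ENSMUSG00000001119, chromosome 10, 76708792 to 76726168) was 11.5, 12.0 and 17.3 FPKM in cKO and 7.04, 8.07 and 8.19 FPKM in control libraries, with cKO replicate 3 well above the other cKO libraries. Its log2 fold change was 0.78 (SE 0.16, adjusted p = 0.0362), and the call ended when any library other than cKO replicate 3 was left out (adjusted p of 0.0520 to 0.110). Its partners *Col6a2* and *Col6a3* also separated the groups, with log2 differences of 0.68 and 0.71, and missed the threshold at adjusted p values of 0.0502 and 0.0651. *Col6a3* averaged 1.06 ± 0.152 FPKM in cKO and 0.607 ± 0.0657 FPKM in control cortex. The chains *Col6a4*, *Col6a5* and *Col6a6* were at 0.655 FPKM or below in every library and were not tested.

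Fibril-associated genes had a median log2 difference of 0.11 over 7 tested genes, and 1 of them rose. *Col9a3* (ENSMUSG00000027570, chromosome 2, 180597790 to 180622189) was 9.28, 8.95 and 12.5 FPKM in cKO and 5.79, 5.92 and 5.04 FPKM in control libraries. All cKO values exceeded all control values, and it rose by 0.85 on the log2 scale (SE 0.14, adjusted p = 0.0176). The adjusted p was 0.0602 without control replicate 1 and 0.0623 without control replicate 2. The other chains of type IX did not separate: *Col9a2* was 3.84, 4.20 and 4.87 FPKM in cKO and 4.97, 4.89 and 3.07 FPKM in control libraries, and *Col9a1* averaged 0.710 ± 0.194 FPKM in cKO and 0.636 ± 0.0492 FPKM in control cortex. The ratio of *Col9a3* to *Col9a2*, examined after their values were seen, was 2.42, 2.13 and 2.56 in cKO and 1.17, 1.21 and 1.64 in control libraries. Of the other ratios examined in this way, *Col9a3* over *Col9a1* and *Col3a1* over *Col5a2* separated the groups. *Col11a2* over *Col11a1* and *Col6a3* over *Col6a1* overlapped. Exons of *Col9a3* overlap 234 bases of *Tcfl5* on the other strand, whose log2 difference was 0.19 (adjusted p = 0.648). The sources used here do not say whether counting used strand.

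*Col16a1* separated the groups, at 2.63 ± 0.414 FPKM in cKO and 1.92 ± 0.313 FPKM in control cortex, but did not pass (adjusted p = 0.175). *Col12a1*, *Col19a1* and *Col22a1* overlapped, with log2 differences of -0.04, 0.31 and -0.40. *Col14a1* and *Col20a1* were under 0.5 FPKM in all but cKO replicate 3, where they were 0.533 and 0.542 FPKM, and were not tested. Both were higher in each cKO library than in any control library, and *Col20a1* shares 79 exon bases with an overlapping gene on the same strand, so its value is uncertain.

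Among the transmembrane collagens, *Col23a1* rose (ENSMUSG00000063564, chromosome 11, 51289920 to 51583918). It was 5.94, 6.34 and 5.11 FPKM in cKO and 3.92, 4.14 and 4.01 FPKM in control libraries, and in contrast to *Col6a1* its lowest cKO value was that of replicate 3. Its log2 fold change of 0.51 (SE 0.10, adjusted p = 0.0343) was the smallest called, and the call ended when any library other than cKO replicate 3 was left out (adjusted p of 0.0587 to 0.123). *Col25a1*, known from neurons as the precursor of a protein found in amyloid plaques, was 1.76, 2.00 and 3.14 FPKM in cKO and 1.31, 1.79 and 0.573 FPKM in control libraries. The groups overlapped and the log2 difference of 0.94 had an SE of 0.39. *Col13a1* and *Col17a1* were under 0.5 FPKM throughout.

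Neither of the tested hexagonal network genes passed. *Col8a1* ranged over 1.301 to 2.20 FPKM in cKO and 1.58 to 2.38 FPKM in control libraries, which overlapped (log2 difference -0.15, adjusted p = 0.754). *Col8a2* was 0.672, 0.369 and 1.93 FPKM in cKO and 0.257, 0.380 and 0.645 FPKM in control libraries, so that the groups overlapped and cKO replicate 3 stood far above the rest (log2 difference 0.84, SE 0.54, adjusted p = 0.406). The choroid plexus gene *Ttr* was likewise highest in that library, at 324, 182 and 877 FPKM in cKO and 33.1, 104 and 178 FPKM in control libraries. Its part in the *Col8a2* values was not tested. Outside the classes, *Col26a1* was 3.35, 2.99 and 3.88 FPKM in cKO and 2.51, 2.21 and 2.61 FPKM in control libraries, without overlap, and did not pass (adjusted p = 0.0915). *Col7a1*, the anchoring fibril collagen of skin, stayed at 0.549 FPKM or below.

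Genes that lie next to each other did not all differ by the same amount. In all, 8 pairs of collagen genes, made of 15 genes, lie within 200000 bases of each other. *Col3a1* and *Col5a2*, 24614 bases apart on chromosome 1 and on opposite strands, had log2 differences of 1.33 and 0.39, and the second did not pass. *Col6a2* and *Col6a1*, in tandem on chromosome 10, had 0.68 and 0.78. *Col9a1* and *Col19a1*, 9205 bases apart on chromosome 1, had 0.11 and 0.31.

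The cKO libraries differed among themselves in collagen level. Of the 29 tested genes, 23 (79.3%) were highest among the cKO libraries in replicate 3, against 40.5% of all tested genes, and 14 were also lowest in replicate 2 (48.3%, against 20.3%). Those 14 included *Col1a1*, *Col1a2*, *Col3a1*, *Col4a1*, *Col18a1*, *Col6a2* and *Col6a3*. *Col5a1*, *Col15a1*, *Col19a1*, *Col22a1*, *Col23a1* and *Col24a1* were instead lowest in replicate 3.

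Genes that make, process and bind collagen were compared from lists. Beside the counts of these lists and of the marker lists below stand the shares over all tested genes. Of those, 3.67% were called higher and 1.87% lower, with a median log2 difference of 0.07. Of 22 genes of collagen folding and modification in the endoplasmic reticulum, 3 rose and 1 fell, with a median log2 difference of 0.31. *P4ha1*, the catalytic subunit of prolyl 4-hydroxylase, averaged 6.31 ± 0.285 FPKM in cKO and 3.93 ± 0.651 FPKM in control cortex (log2 fold change 0.68, adjusted p = 0.0281). Its partner subunit *P4hb*, which is also a general disulfide isomerase, averaged 47.8 ± 2.70 FPKM in cKO and 36.7 ± 0.996 FPKM in control cortex (adjusted p = 0.0136). The prolyl isomerase *Ppib* averaged 156 ± 11.4 FPKM in cKO and 127 ± 4.83 FPKM in control cortex (adjusted p = 0.0442). *Colgalt2*, a collagen galactosyltransferase, fell to 1.07 ± 0.0714 FPKM in cKO, against 1.69 ± 0.0523 FPKM in control cortex (adjusted p = 0.0382). *P4ha3*, another catalytic subunit of prolyl 4-hydroxylase, was 0.526, 0.490 and 0.913 FPKM in cKO and 1.23, 1.37 and 1.55 FPKM in control libraries, without overlap, and did not pass (log2 difference -1.04, adjusted p = 0.0512). *Serpinh1*, the collagen chaperone HSP47, averaged 24.0 ± 3.80 FPKM in cKO and 16.7 ± 3.35 FPKM in control cortex and did not pass (adjusted p = 0.105).

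None of 11 tested genes of procollagen processing and crosslinking passed (median 0.30). The most abundant was *Bmp1*, the procollagen C-proteinase, at 9.80 ± 0.902 FPKM in cKO and 9.92 ± 0.586 FPKM in control cortex. The lysyl oxidase *Loxl2* had a log2 difference of 0.99 and an adjusted p of 0.0531. Of 11 tested genes of collagen breakdown, with a median of 0.05, the membrane protease *Mmp15* rose to 16.6 ± 1.56 FPKM in cKO, against 11.1 ± 0.915 FPKM in control cortex. The inhibitor *Timp3* fell to 5.86 ± 0.911 FPKM in cKO, against 8.94 ± 0.380 FPKM in control cortex, with adjusted p values of 0.0164 and 0.0291 for this pair. *Mmp14* averaged 3.79 ± 1.58 FPKM in cKO and 6.42 ± 0.309 FPKM in control cortex, without overlap. It did not pass (log2 difference -0.82, adjusted p = 0.110). None of 5 tested collagen receptor genes passed (median 0.29), with the collagen III receptor *Adgrg1* at 23.4 ± 5.69 FPKM in cKO and 28.5 ± 1.16 FPKM in control cortex. Of 11 tested fibril-binding proteoglycans and partners, *Dcn* and *Lum* rose, by 1.63 and 1.43 on the log2 scale, and none fell (median 0.33).

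Markers of the cell types known to make collagen were also higher in part. Summed FPKM of 11 meningeal and perivascular fibroblast markers, collagens left out, was 109, 79.1 and 134 in cKO and 49.9, 51.4 and 66.3 in control libraries. The groups did not overlap, and the cKO mean was 1.92 times the control mean, against 1.79 times for the summed fibrillar class. Without *Dcn*, a sum added after the values were seen, it was 71.3, 50.4 and 77.3 FPKM in cKO and 37.9, 39.5 and 52.0 FPKM in control libraries, the groups overlapped and the ratio of means was 1.54. Of the 11 markers, 4 separated the groups with cKO above control, a pattern held by 21.5% of all tested genes. All 11 were tested, *Dcn* and *Lum* rose, and none fell (median log2 difference 0.66). *Dcn* had the highest level of the list, at 38.1, 28.7 and 56.6 FPKM in cKO and 12.0, 11.9 and 14.3 FPKM in control libraries. It was highest in cKO replicate 3 and lowest in cKO replicate 2, as *Col3a1*, *Col1a1* and *Col1a2* were. *Lum* was instead highest in cKO replicate 1 (8.86, 5.63 and 7.30 FPKM in cKO). Among the cKO libraries, *Igf2* was lowest in replicate 3 and *Pdgfra* in replicate 1. The other markers of the list were ordered as *Dcn* was. *Pdgfra*, which oligodendrocyte precursors also carry, was the second most abundant of the list.

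Summed endothelial markers were 69.4, 67.5 and 72.7 FPKM in cKO and 56.8, 56.9 and 63.9 FPKM in control libraries, with a cKO mean 1.18 times the control mean. Summed mural markers were 69.9, 69.4 and 71.7 FPKM in cKO and 57.7, 62.9 and 55.7 FPKM in control libraries, a ratio of means of 1.197. Type IV genes, summed, were 37.5, 37.2 and 47.3 FPKM in cKO and 24.8, 21.8 and 28.0 FPKM in control libraries, a ratio of means of 1.63. Of 10 endothelial markers 1 rose (*Cdh5*) and none fell, and of 9 mural markers 2 rose (*Abcc9* and *Tagln*) and 1 fell (*Notch3*), with medians of 0.21 and 0.33. All 3 cKO libraries lay above all 3 control libraries in 5 of the 10 endothelial and 6 of the 9 mural markers, against 21.5% of all tested genes. The opposite pattern was found in 1 mural marker and no endothelial marker, against 8.17% of all tested genes. *Cldn5* and *Rgs5*, the most abundant marker of each list, differed by 0.28 and 0.33 on the log2 scale and missed the threshold. Oligodendrocyte lineage markers rose in 10 of 10 (median 1.91), astrocyte markers fell in 4 of 6 (median -2.14), none of 7 neuron markers passed (median -0.06), and of 7 choroid plexus markers 3 were tested and none passed (median 0.96). Summed, the oligodendrocyte list ranged over 328 to 426 FPKM in cKO and 110 to 149 FPKM in control libraries, the astrocyte list over 40.9 to 76.1 FPKM in cKO and 140 to 203 FPKM in control libraries, and the choroid plexus list over 184 to 885 FPKM in cKO and 34.9 to 181 FPKM in control libraries. The choroid plexus sum was almost all *Ttr*, at 182 of 184 FPKM in cKO replicate 2 and 178 of 181 FPKM in control replicate 3. Of the 3 tested markers of that list, *Ttr* alone separated the groups. No marker of these lists was at 0 in all libraries. In bulk tissue, more cells of a type cannot be told apart from more RNA per cell, and the part of these markers in the collagen differences was not tested.

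**Figure D5:**
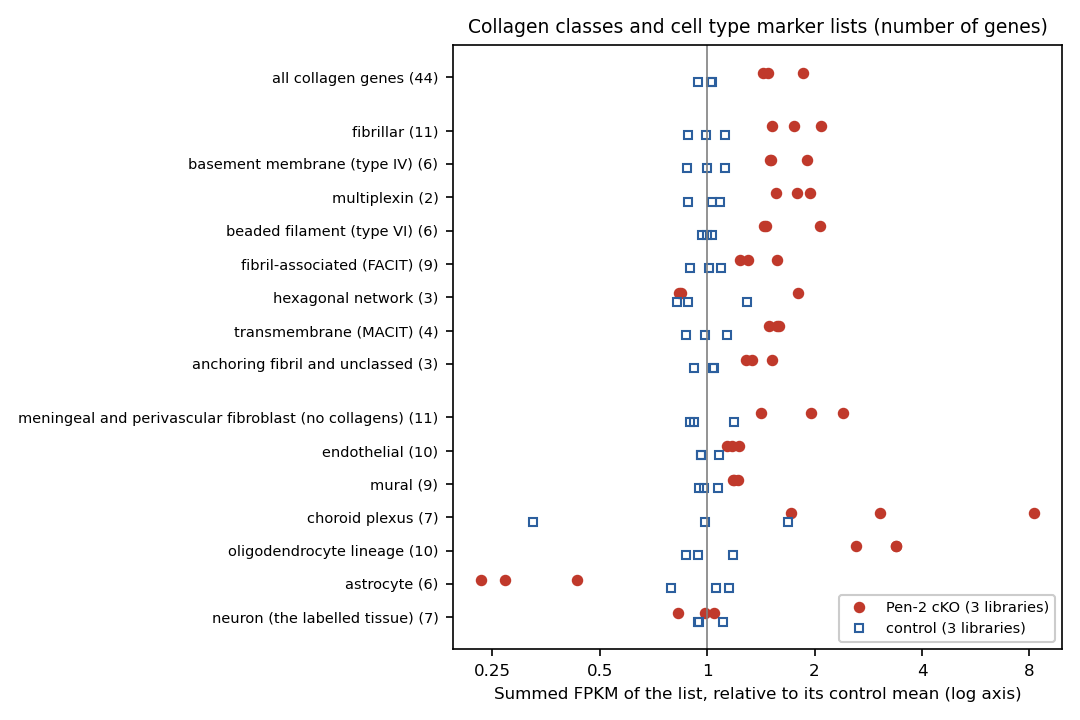
Summed FPKM of all collagen genes, of each collagen class and of each marker list, divided by the mean of the control libraries (x axis, log scale), for the 3 Pen-2 cKO libraries (filled circles) and the 3 control libraries (open squares). In every collagen class but the hexagonal network the cKO libraries lie to the right of the control libraries. So they do for the fibroblast, endothelial, mural and oligodendrocyte lists. The choroid plexus list separates narrowly, at 184 FPKM in cKO replicate 2 and 181 FPKM in control replicate 3, and is almost all *Ttr*.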

How the data were processed

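The deposited per-library values are in FPKM, per the file headers. The submitters' processing notes name mm10 as the build. No aligner, counting program or annotation release is named in the sources used here. At the implied depths, 56.5% of values came out within 0.01 of a whole fragment in genes with a single transcript of more than 1000 bases. In genes with several transcripts 3% did, so counts were not recovered. The per-library tables held the same values as the series-wide table. Coordinates are those of the deposited files, counted from 1, and 27776 of 34745 ranges were identical to GENCODE M21. The authors' group values, p-values and calls were not used.

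Differences were tested with limma 3.58.1 in R 4.3.3 (moderated test, mean-variance trend, robust variance estimation, two-sided) on log2(FPKM + 0.1), for 14147 genes that reached 0.5 FPKM in 3 or more libraries. The model held group alone, and Benjamini-Hochberg adjustment ran over every tested gene. The steps were tested on simulated data. The collagen genes and the lists were chosen with earlier results of these data known. Genes given in full were those called and the most abundant of each class. For other lists, they were those called or, with none called, the most abundant. Others, such as *Col1a1*, *P4ha3*, *Serpinh1*, *Loxl2* and *Mmp14*, were added after their values were seen. Ratios were tested by exact permutation in SciPy 1.17.1. Repeats and motifs were searched in Python 3.11.15 (NumPy 2.4.6, pandas 2.3.3). Matplotlib 3.10.9 drew the figures. Alternatives varied the pseudocount, filter, scaling, test options, replicate block and each library left out.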

Additional observations from a re-analysis of the deposited data

How the results depend on the processing

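The log2 differences of the 8 called collagen genes kept their sign under all 17 alternatives, and no collagen gene was called lower under any of them. The count called higher, 8, became 4 without a low-value filter, 4 with median-ratio scaling, 5 with the replicate number as a block and 0 to 7 with 1 library left out, and 6 to 11 under the others. Over all tested genes the count of 783 became 499 with no filter, 456 with the block and 220 to 842 with 1 library left out. It became 1151 with scaling to equal sums and 634 to 809 under the others. Same-numbered libraries deviated with correlations of 0.061, 0.012 and 0.1, and differently numbered ones with -0.091 to 0.056. As these ranges overlap, they cannot decide whether the numbers are pairs, and the main model held group alone. Under the block *Col3a1*, *Col4a1*, *Col4a2*, *Col6a1* and *Col18a1* were called. *Col8a1* ranged over -0.36 to 0.031 (log2 difference) with 1 library left out and reversed without control replicate 3. With 1 library left out, the log2 difference of the ratio of *Col6a1* to *Col6a2* ranged over -0.084 to 0.22 and that of *Col1a1* to *Col4a1* over -0.17 to 0.16. The number of genes under 0.5 FPKM, 8 in all libraries, was 14 by their mean, and 17 were under 1 FPKM in all libraries. Depth limits *Col10a1*, which rested on 1 to 7 fragments. The 15 untested genes were left out by the filter on FPKM.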
